A study of Vitis vinifera with 15 samples.

Results

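The comparison was between ripe berry skins of 2 table grape cultivars, Centennial Seedless and Summer Black, with 3 RNA-seq libraries of each among the 15 libraries of the series. Its members were fixed by the sample labels, which give cultivar, tissue (skin), stage (ripening) and a replicate number. Centennial Seedless has a green skin and a muscat aroma, and Summer Black has a dark skin and a strawberry aroma. In the study's clustering of skin volatiles, however, Centennial Seedless grouped with Summer Black, and the study leaves its aroma profile open. Both cultivars are seedless. Summer Black is a hybrid with American as well as European grapes in its pedigree, whereas reads were aligned to a V. vinifera genome. The study also calls Centennial Seedless a hybrid, as a possible reason for its profile. Pedigrees of the other cultivars were not compared here, so hybrid ancestry is not taken as particular to Summer Black. The remaining 9 libraries came from Shine muscat (green, muscat), Midknight Beauty (dark red, muscat) and Victoria (green, no aroma), 3 libraries each, and they are used below only to place the differences. All vines grew in 1 vineyard in 1 season and received no experimental treatment. Each aroma and each skin colour is represented here by 1 cultivar, so aroma, colour, ancestry and cultivar cannot be told apart in this comparison. The labels call the libraries of a cultivar replicates of the ripening stage, while a passage of the study's methods assigns the library numbers to 3 maturity stages. They were treated as replicates, and all p-values measure the spread between these libraries.

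The aroma of a ripe grape comes from volatile compounds that are made in good part in the skin. Monoterpenes, the characteristic volatiles of muscat grapes, are built from precursors of the plastid methylerythritol phosphate (MEP) pathway, whose entry enzyme is deoxyxylulose phosphate synthase (DXS), and terpene synthases (TPS) turn these precursors into individual terpenes. UDP-glycosyltransferases (UGT) attach sugars to volatiles and other metabolites, which makes them odourless and soluble, and beta-glucosidases (BGLU) can release them again. Esters, which are typical of strawberry-scented grapes, as well as alcohols and aldehydes depend among others on alcohol dehydrogenases (ADH). Cinnamoyl-CoA reductases (CCR) act in the phenylpropanoid pathway. The colour of dark grape skins comes from anthocyanins, which green cultivars do not accumulate.

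Expression was given as fragments scaled to transcript length and to the number of mapped fragments (FPKM) for 31924 genes. Of these, 18238 reached an FPKM of 1 or more in 3 or more libraries of the 15 and were tested. FPKM summed to 741748 to 765019 in the 6 libraries, 9893 to 10707 genes were listed at 0, and the 5 most abundant genes of a library held 15.1% to 17.8% of its sum. The read depth behind a single value is unknown, since the low values are not whole multiples of a common step. The study does report reads per library, and among these 6 the share that mapped was lowest in Summer Black replicate 3, well below the rest. Over all 15 libraries it was lowest, by a wide margin, in Shine muscat replicate 1, which is used below in placing the differences. Pearson's r of log2(FPKM + 1) across the tested genes was 0.949 to 0.979 within Centennial Seedless, 0.944 to 0.949 within Summer Black and 0.860 to 0.913 over the 9 pairs between them, where genes are not independent replicates. No source used here pairs the gene identifiers with names, apart from 34 genes that the study discusses. Genes are therefore given by their identifier, in which the digits before the letter s are the chromosome and 00 stands for unplaced sequence, and markers of skin, seed or green tissue could not be checked.

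Centennial Seedless and Summer Black differed in 321 of the 18238 genes (1.76%), of which 177 (0.971%) were higher and 144 (0.79%) lower in Centennial Seedless. Such a differentially expressed gene (DEG) differed by 2 or more on the log2(FPKM + 1) scale, in which 1 unit is a doubling for well expressed genes, with an adjusted p of 0.01 or less (limma, Benjamini-Hochberg adjustment). All differences are given as Centennial Seedless minus Summer Black. The genes lower in Centennial Seedless had the larger differences, with a median of 3.002 and a largest of 10.5 in size, against 2.59 and 5.99 for the genes that were higher. A difference of at least 6 was found for 11 of the lower and 0 of the higher DEGs, and one of at least 4 for 37 of the lower and 13 of the higher DEGs. Of the 144 lower DEGs, 39 were listed at 0 in all 3 Centennial Seedless libraries, and of the 177 higher DEGs, 13 were listed at 0 in all 3 Summer Black libraries. A mean of at least 100 FPKM in the cultivar with the higher level was reached by 13 of the higher and 26 of the lower DEGs, and a mean under 10 FPKM was the case for 77 and 47. The median difference over all tested genes was 0.04.

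**Figure D1:**
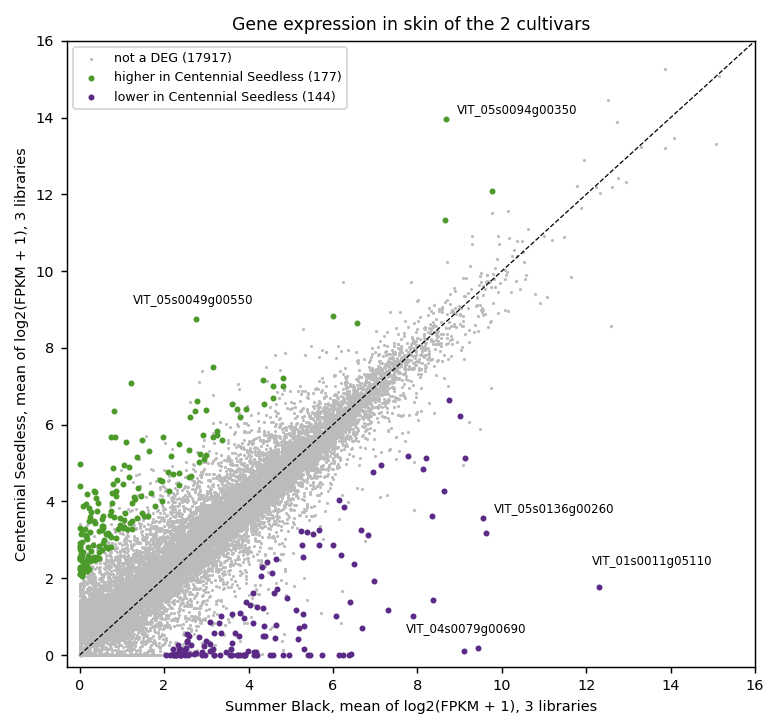
Mean log2(FPKM + 1) of the 3 Summer Black libraries (x axis) and of the 3 Centennial Seedless libraries (y axis) for each of the 18238 tested genes, with DEGs in colour and the line of equal expression dashed. The 144 genes lower in Centennial Seedless reach farther from the line than the 177 higher ones, and many of them lie on the x axis.

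In all, 677 genes (3.71%) had an adjusted p of 0.01 or less at any size of difference. The values of the 2 cultivars did not overlap for 6198 genes (34%), with 3507 (19.2%) higher and 2691 (14.8%) lower in Centennial Seedless, and all 321 DEGs were among them. With 3 libraries against 3, an exact permutation test of a single gene cannot go below p = 0.1, so the calls rest on the variance that limma shares between genes. The number of calls depended on single libraries. Without Centennial Seedless replicate 2 only 46 DEGs were called and without replicate 3 of the same cultivar 89, against 175 to 204 without any other library. Of the 321 DEGs, 46 remained DEGs without Centennial Seedless replicate 2, 81 without replicate 3 and 154 to 173 without any other library. For the genes below, the fits with 1 library left out are therefore given beside the call.

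The study paired 20 candidate aroma genes with identifiers and designed primers for their quantitative PCR. The primers of 2 neighbouring pairs are shown because a primer of one gene matches the primer of the other. The genes themselves were not compared in sequence. Capitals mark the bases that both primers of a pair share. The sequences are given 5′ to 3′ as designed and were not matched to a genome here.
VIT_13s0067g00370 (TPS) forward: aGATGTTGTTGACAGGTGGGATA
VIT_13s0067g00380 (TPS) forward: GATGTTGTTGACAGGTGGGATA
VIT_13s0067g00370 (TPS) reverse: AAGCCATTTCATTAGTGGAGTTgta
VIT_13s0067g00380 (TPS) reverse: AAGCCATTTCATTAGTGGAGTT
VIT_00s0615g00020 (ADH) forward: aaagttggtgttgggtgtctg
VIT_00s0615g00030 (ADH) forward: gattgtaggcatagtgacagagg
VIT_00s0615g00020 (ADH) reverse: GTGGTGGTTCCATCATAGTAAGTG
VIT_00s0615g00030 (ADH) reverse: GTGGTGGTTCCATCATAGTAAGTG
The primers of the TPS pair shared runs of 22 bases in both primers, and those of the ADH pair shared the reverse primer of 24 bases.

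Of the 20 candidate aroma genes, 1 was higher and 3 were lower in Centennial Seedless, which is 20% against 1.76% of all tested genes, and their median difference was -0.19 against 0.04 over all genes. The study chose these candidates on the same libraries, so that the count is not independent evidence. Both lower TPS genes had no measured expression in the muscat cultivar. VIT_13s0067g00370 was listed at 0 FPKM in all 3 Centennial Seedless libraries and 26.6, 11.9 and 5.67 FPKM in Summer Black (adjusted p = 0.00735). The call was lost without Centennial Seedless replicate 1, 2 or 3 or Summer Black replicate 2, with adjusted p up to 0.0388. VIT_13s0067g00380, its neighbour on chromosome 13, was listed at 0 FPKM in all 3 Centennial Seedless libraries and 27.1, 15.2 and 6.6 FPKM in Summer Black (adjusted p = 0.00527). Its call did not hold without Centennial Seedless replicate 1, 2 or 3 or Summer Black replicate 2, where adjusted p reached 0.0293. In both genes replicate 1 of Summer Black was the highest and replicate 3 the lowest. Whether reads were shared between these genes was not tested, so their separate values are uncertain. The other 9 libraries held 0 to 0.254 FPKM of the former and 0 to 0.11 FPKM of the latter, below every Summer Black library. Both genes thus passed the filter for testing only through Summer Black.

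A similar order was seen in the TPS gene VIT_13s0084g00010, which was listed at 0 FPKM in all 3 Centennial Seedless libraries and 11.9, 4.85 and 3.06 FPKM in Summer Black and did not reach the threshold (adjusted p = 0.0112). Without Summer Black replicate 1 it passed, with an adjusted p of 0.0068. Victoria had 3.23 to 3.84 FPKM of it and Shine muscat was listed at 0. The newly assembled TPS gene newGene_3216 was given as 1.27, 0.476 and 0.128 FPKM in Centennial Seedless and 12.5, 6.59 and 2.06 FPKM in Summer Black, without passing (log2 difference -2.12, SE 0.57, adjusted p = 0.0646). The TPS gene VIT_00s0271g00010 was given as 0.133, 0.344 and 0.0994 FPKM in Centennial Seedless and 0 FPKM in all 3 Summer Black libraries, against 26.2 to 31.4 FPKM in Shine muscat (log2 difference 0.25, SE 0.11, adjusted p = 0.212). VIT_13s0067g00050 was listed at 0 in all 6 libraries. Thus 4 of the 6 TPS genes were lower in Centennial Seedless without overlap, 2 of them past the thresholds, and 1 was higher without overlap. Over all tested genes, 14.8% were lower and 19.2% higher without overlap, and 1.76% were DEGs. For DXS, VIT_05s0020g02130, the levels were 36, 36.9 and 36 FPKM in Centennial Seedless and 34.5, 24.7 and 22.9 FPKM in Summer Black, which do not overlap but did not pass (log2 difference 0.42, SE 0.17, adjusted p = 0.184).

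Among the genes for glycosides, the UGT gene VIT_17s0000g07070 was higher in Centennial Seedless. It was measured at 14.1, 13.5 and 16.4 FPKM in Centennial Seedless and 1.23, 0.802 and 2.26 FPKM in Summer Black, a 10.2-fold difference of the means (log2 difference 2.73, SE 0.26, adjusted p = 0.00278). This gene fell short of the thresholds without Centennial Seedless replicate 1, 2 or 3 or Summer Black replicate 1, with adjusted p up to 0.018. Its level was 6.75 to 13.1 FPKM in Shine muscat and 11.6 to 15.7 FPKM in Midknight Beauty, and 0.145 to 0.179 FPKM in Victoria, so all 9 libraries of the muscat cultivars lay above the 6 others. The neighbouring UGT gene VIT_17s0000g07060 was low in both cultivars, at 0.471, 0.194 and 0.293 FPKM in Centennial Seedless and 0.614, 0.733 and 0.408 FPKM in Summer Black (log2 difference -0.26, SE 0.14, adjusted p = 0.279). The BGLU gene VIT_03s0063g02490 was measured at 83.6, 54.4 and 56.7 FPKM in Centennial Seedless and 25.4, 26.6 and 21.2 FPKM in Summer Black, without overlap but short of both thresholds (log2 difference 1.35, SE 0.20, adjusted p = 0.0103).

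Of the 7 genes for phenylpropanoid volatiles, 1 was lower in Centennial Seedless and none was higher, which is 14.3% against 1.76% of all tested genes. The ADH gene VIT_00s0615g00010 was given as 0.0148, 0 and 0.32 FPKM in Centennial Seedless and 5.73, 6.37 and 2.56 FPKM in Summer Black (log2 difference -2.35, SE 0.31, adjusted p = 0.00744). It missed the thresholds without Centennial Seedless replicate 1, 2 or 3 or Summer Black replicate 1 or 2, with adjusted p up to 0.0416. Shine muscat, also a muscat cultivar, had 23.2 to 27.1 FPKM of it, above every Summer Black library. The other 2 ADH genes of this stretch had the same direction, with VIT_00s0615g00020 at 1.86, 1.67 and 2.15 FPKM in Centennial Seedless and 7.37, 3.96 and 5.96 FPKM in Summer Black (log2 difference -1.20, SE 0.24, adjusted p = 0.0284) and VIT_00s0615g00030 at 27.8, 25.6 and 33.3 FPKM in Centennial Seedless and 59, 52.2 and 31.2 FPKM in Summer Black (log2 difference -0.66, SE 0.26, adjusted p = 0.161). Only the values of VIT_00s0615g00020 did not overlap in this pair, and neither gene passed. For the CCR gene VIT_13s0067g00620 the levels were 6.84, 8.39 and 6.42 FPKM in Centennial Seedless and 6.71, 1.73 and 1.3 FPKM in Summer Black, and for VIT_13s0047g00940 they were 10.7, 10.1 and 10.8 FPKM in Centennial Seedless and 11.8, 14.2 and 9.08 FPKM in Summer Black, overlapping in both cases. The cytochrome P450 gene (CYP) VIT_08s0007g07730 had 19.9, 37.8 and 36.1 FPKM in Centennial Seedless and 17.5, 5.18 and 17.4 FPKM in Summer Black, without overlap. The short-chain dehydrogenase gene (SDR) VIT_08s0040g01200 was the most abundant candidate, at 114, 113 and 142 FPKM in Centennial Seedless and 159, 64.5 and 85.7 FPKM in Summer Black, with overlap. The adjusted p of these 4 genes ran from 0.156 to 0.743.

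None of the 3 transcription factor genes passed. The MYB gene VIT_03s0063g02620 was measured at 7.63, 2.3 and 3.19 FPKM in Centennial Seedless and 0.105, 0.138 and 0 FPKM in Summer Black, without overlap (log2 difference 2.19, SE 0.36, adjusted p = 0.0147), and Victoria held up to 86.3 FPKM of it. The MYB gene VIT_17s0000g07950 had 6.41, 7.42 and 4.08 FPKM in Centennial Seedless and 19.5, 13.6 and 6.02 FPKM in Summer Black, with overlap (log2 difference -0.91, SE 0.43, adjusted p = 0.228). The GATA gene VIT_15s0024g00980 had 1.2, 0.723 and 0.85 FPKM in Centennial Seedless and 5.04, 2.97 and 3.11 FPKM in Summer Black, without overlap (log2 difference -1.27, SE 0.23, adjusted p = 0.0192).

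**Figure D2:**
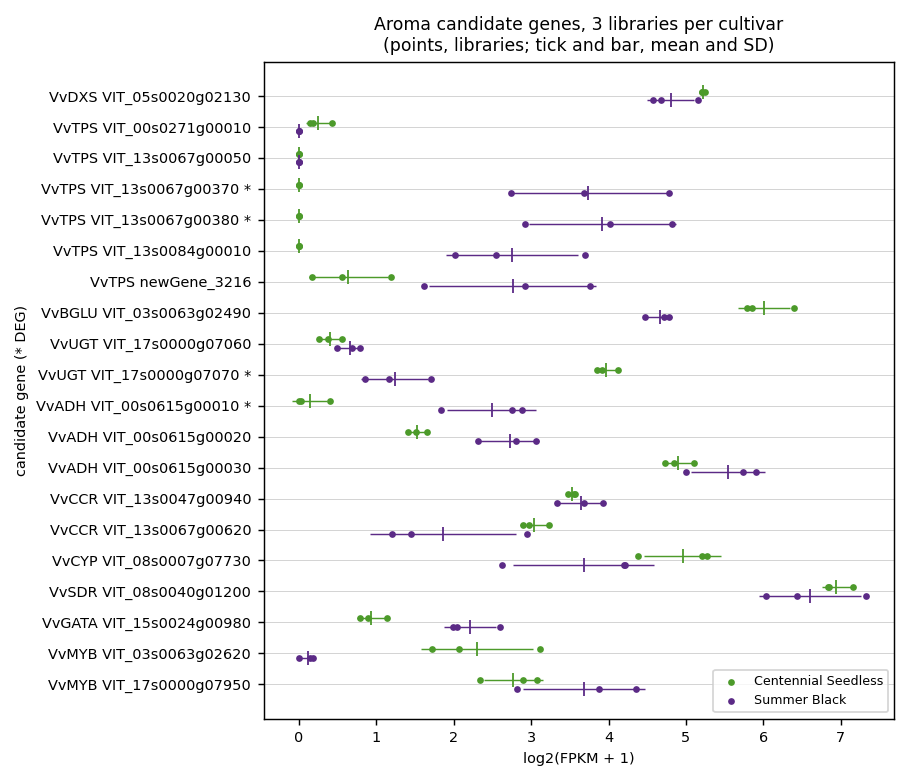
log2(FPKM + 1) of the 20 candidate genes in the 3 libraries of Centennial Seedless (green) and of Summer Black (purple), as points with mean and SD, with DEGs marked by an asterisk. The UGT gene VIT_17s0000g07070 stands apart on the side of Centennial Seedless, while 2 TPS genes and 1 ADH gene stand apart on the side of Summer Black.

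Among the 14 further genes that the study assigns to metabolic pathways, 0 were higher and 1 was lower in Centennial Seedless (7.14%, against 1.76% of all tested genes), with a median difference of 0.35 against 0.04 over all genes. The study picked these genes on the same libraries too, so that this count is not independent evidence either. The gene that was lower, VIT_04s0079g00690, is assigned to glutathione metabolism, in which glutathione S-transferases couple the tripeptide glutathione to metabolites and toxins. It was given as 0.477, 0 and 0 FPKM in Centennial Seedless and 360.1, 1644 and 553 FPKM in Summer Black (log2 difference -9.24, SE 0.55, adjusted p = 0.000992). All 6 fits with 1 library left out called it, with adjusted p up to 0.0097. Midknight Beauty, the other dark cultivar, had 304 to 697 FPKM, and the 6 libraries of the green cultivars Shine muscat and Victoria held at most 0.0553 FPKM. The other 2 genes of glutathione metabolism were abundant in both cultivars. VIT_19s0093g00190 had 807, 619 and 534 FPKM in Centennial Seedless and 2736, 2198 and 1678 FPKM in Summer Black, without overlap but short of the thresholds (log2 difference -1.75, SE 0.27, adjusted p = 0.0124), and VIT_19s0015g02880 had 1002, 1155 and 833 FPKM in Centennial Seedless and 907, 654 and 637 FPKM in Summer Black (log2 difference 0.45, SE 0.22, adjusted p = 0.252). VIT_07s0005g01030, of amino sugar and nucleotide sugar metabolism, was listed at 0 FPKM in all 3 Centennial Seedless libraries and 0.755, 2.32 and 1.88 FPKM in Summer Black (adjusted p = 0.0206).

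The largest difference of the comparison was that of VIT_01s0011g05110, which was nearly absent from Centennial Seedless. It was measured at 4.28, 0.4 and 4.39 FPKM in Centennial Seedless and 6547, 5654 and 3422 FPKM in Summer Black, so that the mean was 1722-fold higher in Summer Black (log2 difference -10.52, SE 0.57, adjusted p = 0.000894). It passed in all 6 fits with 1 library left out, with adjusted p up to 0.0061. The other 3 cultivars held 2854 to 11126 FPKM, all far above the Centennial Seedless libraries. Its neighbour VIT_01s0011g05150 was given as 0.221, 0 and 0 FPKM in Centennial Seedless and 232, 462 and 1552 FPKM in Summer Black (log2 difference -9.01, SE 0.65, adjusted p = 0.00149), with replicate 3 of Summer Black above the others. The call was lost without Centennial Seedless replicate 2 or 3, with adjusted p up to 0.0122. VIT_03s0063g01330 was given as 0.369, 1.09 and 5.73 FPKM in Centennial Seedless and 366, 192 and 503 FPKM in Summer Black (log2 difference -6.94, SE 0.64, adjusted p = 0.00262). Its call did not hold without Centennial Seedless replicate 2 or Summer Black replicate 1 or 3, where adjusted p reached 0.0177. VIT_05s0077g02020 was given as 0.974, 1.53 and 0.68 FPKM in Centennial Seedless and 270.0, 172 and 292 FPKM in Summer Black (log2 difference -6.88, SE 0.26, adjusted p = 0.000266). All 6 fits with 1 library left out called it, with adjusted p up to 0.00406. Here Shine muscat was at the level of Summer Black (254 to 269.8 FPKM), and Midknight Beauty and Victoria were at that of Centennial Seedless (0.0927 to 1.22 FPKM). With VIT_04s0079g00690, these were the 5 largest differences in this direction.

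In the other direction, the largest difference was that of VIT_05s0049g00550, with 665, 377 and 320.3 FPKM in Centennial Seedless and 6.39, 3.52 and 8.44 FPKM in Summer Black, a 74.2-fold difference of the means (log2 difference 5.99, SE 0.37, adjusted p = 0.00104). It passed in all 6 fits with 1 library left out, with adjusted p up to 0.0097. VIT_03s0088g00710 varied most between libraries among the genes of this paragraph, with 162, 282 and 52.7 FPKM in Centennial Seedless and 0.461, 1.17 and 3.02 FPKM in Summer Black (log2 difference 5.86, SE 0.67, adjusted p = 0.00462). This gene fell short of the thresholds without Centennial Seedless replicate 1 or 2 or Summer Black replicate 1, 2 or 3, with adjusted p up to 0.0218. VIT_03s0038g03130 was steadier, with 92.3, 79.4 and 73.3 FPKM in Centennial Seedless and 0.824, 0.424 and 1.06 FPKM in Summer Black (log2 difference 5.56, SE 0.20, adjusted p = 0.000221). All 6 fits with 1 library left out called it, with adjusted p up to 0.0051. VIT_04s0210g00060 was listed at 33.7, 28.7 and 29.8 FPKM in Centennial Seedless and 0 FPKM in all 3 Summer Black libraries (adjusted p = 0.000198). It passed in all 6 fits with 1 library left out, with adjusted p up to 0.00347. Victoria had 17.9 to 32 FPKM of this gene, and Shine muscat and Midknight Beauty had 0.609 to 2.1 FPKM.

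Several DEGs were among the abundant transcripts of the skin. VIT_05s0094g00350 was measured at 17770.1, 14308 and 15545 FPKM in Centennial Seedless and 723, 563 and 164 FPKM in Summer Black (log2 difference 5.28, SE 0.58, adjusted p = 0.00402), and it made up 2.11% of the summed FPKM in Centennial Seedless and 0.0644% in Summer Black. It missed the thresholds without Centennial Seedless replicate 1, 2 or 3 or Summer Black replicate 2, with adjusted p up to 0.0233. VIT_05s0094g00330, which lies close to it, was measured at 2999.9, 2202 and 2624 FPKM in Centennial Seedless and 598, 286 and 386 FPKM in Summer Black (log2 difference 2.68, SE 0.31, adjusted p = 0.00486). The call was lost without Centennial Seedless replicate 1, 2 or 3 or Summer Black replicate 2 or 3, with adjusted p up to 0.0237. For VIT_05s0094g00350 the other 3 cultivars lay between, at 3155 to 10080.1 FPKM, while for VIT_05s0094g00330 Shine muscat was at the level of Summer Black (352 to 359.6 FPKM). VIT_14s0081g00030 was measured at 4933, 4807 and 3542 FPKM in Centennial Seedless and 902, 936 and 790.4 FPKM in Summer Black (log2 difference 2.32, SE 0.24, adjusted p = 0.00366). It passed in none of the 6 fits with 1 library left out, with adjusted p from 0.0103 to 0.0243. In the other direction, the most abundant DEGs beside VIT_01s0011g05110 and VIT_04s0079g00690 included VIT_05s0136g00260, with 13, 9.47 and 10.2 FPKM in Centennial Seedless and 359.6, 1500.4 and 790.3 FPKM in Summer Black (log2 difference -6.00, SE 0.49, adjusted p = 0.00189). Its call did not hold without Centennial Seedless replicate 2 or 3 or Summer Black replicate 3, where adjusted p reached 0.0143. Midknight Beauty had 130.1 to 419.7 FPKM of it, and the green cultivars Shine muscat and Victoria 1.75 to 7.85 FPKM.

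A set of 39 DEGs passed the thresholds in each of the 6 fits with 1 library left out, 19 of them higher and 20 lower in Centennial Seedless. The genes of this set that are given here outside the rule for named genes were chosen after their values were seen. In VIT_04s0008g04910 the libraries of a cultivar were close to each other, with 38.3, 40.3 and 38.6 FPKM in Centennial Seedless and 2.4, 1.9 and 2.11 FPKM in Summer Black (log2 difference 3.68, SE 0.15, adjusted p = 0.000319). VIT_08s0007g01030 had 51, 40.3 and 47.3 FPKM in Centennial Seedless and 0.75, 1.69 and 1.07 FPKM in Summer Black (log2 difference 4.46, SE 0.22, adjusted p = 0.000534), and Midknight Beauty and Victoria were at the level of Centennial Seedless (41.5 to 55.5 FPKM). VIT_07s0095g00550 had 54.6, 59 and 39.8 FPKM in Centennial Seedless and 0.872, 1 and 0.504 FPKM in Summer Black (log2 difference 4.85, SE 0.22, adjusted p = 0.00037). In the other direction, VIT_01s0011g01740 had 0.758, 1.41 and 0 FPKM in Centennial Seedless and 119.7, 85.9 and 104 FPKM in Summer Black (log2 difference -6.00, SE 0.34, adjusted p = 0.000894), and the 9 libraries of the other cultivars stayed at 0 to 1.71 FPKM. VIT_06s0004g01250 had 0.168, 0.143 and 0.0582 FPKM in Centennial Seedless and 38.2, 43.5 and 34.5 FPKM in Summer Black (log2 difference -5.14, SE 0.17, adjusted p = 0.000198), with Shine muscat at 32.6 to 57.4 FPKM. VIT_07s0031g02630 differed in level rather than in presence, with 32.7, 42.4 and 32.6 FPKM in Centennial Seedless and 190.0, 212 and 264 FPKM in Summer Black (log2 difference -2.59, SE 0.18, adjusted p = 0.00139).

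**Figure D3:**
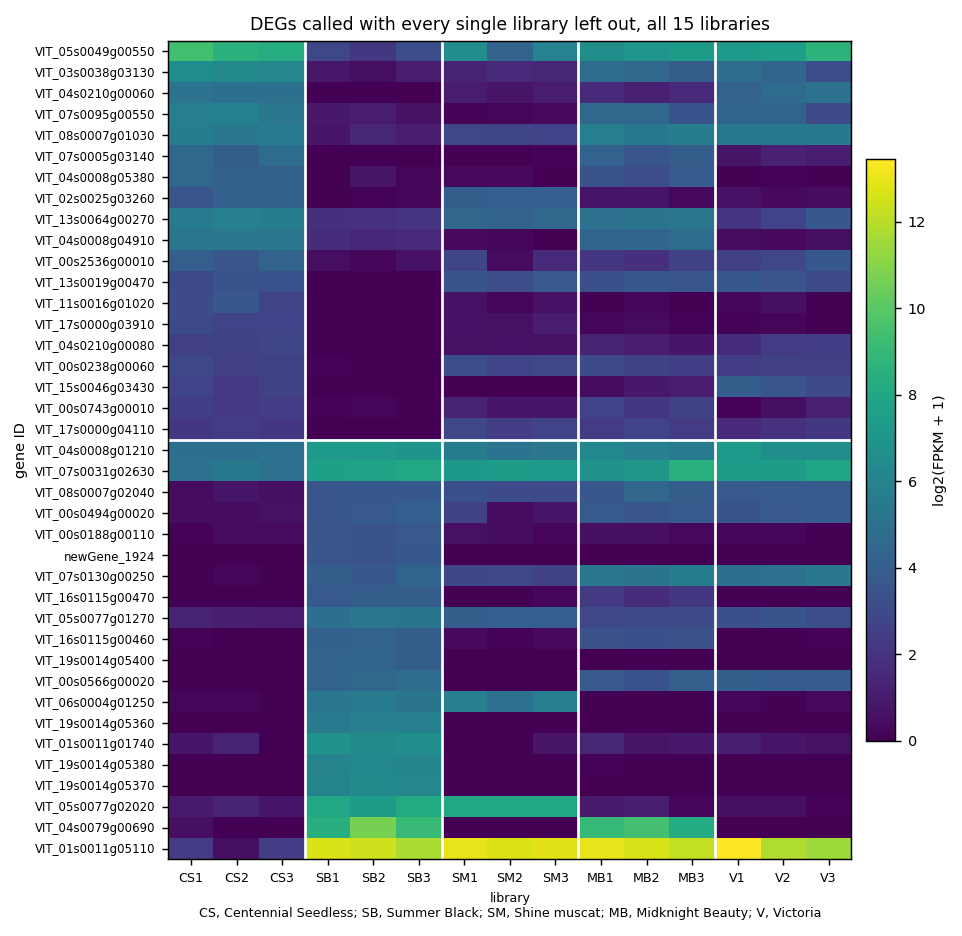
log2(FPKM + 1) (colour) of the 39 DEGs that passed with each library left out (rows, ordered by difference) in all 15 libraries (columns, 3 for each cultivar). The 19 genes above the white line were higher and the 20 below it lower in Centennial Seedless, and the other 3 cultivars follow now the one and now the other.

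Presence and absence were counted over all genes, without a test, and by a rule chosen after the values were seen. There were 82 genes that were listed at 0 in all Centennial Seedless libraries and at 1 FPKM or more in each Summer Black library, and 41 genes with the reverse. Of the 82, 16 were also listed at 0 in all 9 libraries of the other cultivars, so that they were measured in Summer Black alone, and 6 were at 1 FPKM or more in all 9. The 16 passed the filter for testing only through Summer Black, and Centennial Seedless at 0 adds no spread to their test. Their adjusted p is therefore no independent evidence. Of the 41, 0 were measured in Centennial Seedless alone, and 4 were at 1 FPKM or more in all 9, so that Summer Black alone lacked them. The 16 genes of Summer Black included VIT_19s0014g05370, at 66.2, 84.3 and 74.3 FPKM, VIT_19s0014g05360, at 45.1, 57 and 56.7 FPKM, and the newly assembled newGene_1924, at 10.7, 9.77 and 11.9 FPKM. The 6 genes that Centennial Seedless alone lacked included VIT_01s0011g05140 and VIT_04s0008g04020, the latter at 13.2, 14.5 and 7.14 FPKM in Summer Black and 2.06 to 31.8 FPKM in the 9 others. The 4 genes that Summer Black alone lacked were VIT_13s0019g00470 (7, 10.4 and 9.56 FPKM in Centennial Seedless), VIT_13s0139g00020, VIT_17s0000g04110 and VIT_00s0238g00120. A value of 0 says only that the table lists none.

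Some DEGs stood close to each other in the genome. Runs of 3 or more DEGs, with successive identifiers no more than 50 apart, were looked for after the values had been seen. The search did not ask for a direction. It found 5 runs, each with DEGs of the same direction and with 0 to 5 other genes between them. On chromosome 19, 5 genes from VIT_19s0014g05330 to VIT_19s0014g05400 were lower in Centennial Seedless. VIT_19s0014g05380 was listed at 0 FPKM in all 3 Centennial Seedless libraries and 64.2, 77.4 and 68.2 FPKM in Summer Black (adjusted p = 0.000105), and VIT_19s0014g05400 at 0 FPKM in all 3 Centennial Seedless libraries and 18.3, 18.9 and 14.6 FPKM in Summer Black (adjusted p = 0.000319). VIT_19s0014g05330 was the lowest of the 5, with 0, 0.0996 and 0 FPKM in Centennial Seedless and 3.82, 5.22 and 3.31 FPKM in Summer Black (log2 difference -2.29, SE 0.18, adjusted p = 0.00179). No library of the other 4 cultivars held more than 0.2 FPKM of any of the 5. All 5 thus passed the filter for testing only through Summer Black, and values of 0 add no spread. Their adjusted p is therefore no independent evidence that they are particular to Summer Black. The genes on either side, such as VIT_19s0014g05310 with 69.3, 69 and 63.3 FPKM in Centennial Seedless and 74, 73.8 and 62.3 FPKM in Summer Black (log2 difference -0.06, SE 0.12, adjusted p = 0.808), were at like levels in both. The 4 genes from VIT_19s0014g05360 to VIT_19s0014g05400 passed in all 6 fits with a library left out, and VIT_19s0014g05330 missed the thresholds without Centennial Seedless replicate 2 or 3, with adjusted p up to 0.0133.

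On chromosome 1, VIT_01s0011g05110, VIT_01s0011g05140 and VIT_01s0011g05150 were lower in Centennial Seedless. VIT_01s0011g05140 was listed at 0 FPKM in all 3 Centennial Seedless libraries and 89.7, 44.5 and 19.8 FPKM in Summer Black (adjusted p = 0.00266) and at 11 to 235 FPKM in the other 9 libraries. This gene fell short of the thresholds without Centennial Seedless replicate 1, 2 or 3 or Summer Black replicate 2, with adjusted p up to 0.0178. VIT_01s0011g05120 between them was listed at 0 FPKM in all 3 Centennial Seedless libraries and 5.44, 6.38 and 1.69 FPKM in Summer Black but did not pass (adjusted p = 0.015). On chromosome 6, VIT_06s0009g02810, VIT_06s0009g02830 and VIT_06s0009g02840 were listed at 0 in all 3 Centennial Seedless libraries. VIT_06s0009g02830 had the highest level, 22.7, 80.2 and 39.6 FPKM in Summer Black (adjusted p = 0.00179), with 7.55 to 10.8 FPKM in Midknight Beauty and at most 0.0504 FPKM in Shine muscat and Victoria. It missed the thresholds without Centennial Seedless replicate 2 or 3, with adjusted p up to 0.0133. VIT_06s0009g02810 and VIT_06s0009g02840 did so without any 1 of the Centennial Seedless libraries or Summer Black replicate 3, and the former also without replicate 2, with adjusted p up to 0.0421 and 0.0205. VIT_06s0009g02820, which lies inside this run, had the opposite order, with 2.04, 2.15 and 1.46 FPKM in Centennial Seedless and 0.118, 0.337 and 0.258 FPKM in Summer Black (log2 difference 1.22, SE 0.16, adjusted p = 0.00702).

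The run on chromosome 12 was the only one of the 5 that was higher in Centennial Seedless. Its 3 genes had nearly the same levels, with 48.4, 52.6 and 48.7 FPKM in Centennial Seedless and 11.4, 7.09 and 6.17 FPKM in Summer Black for VIT_12s0035g00730 (log2 difference 2.51, SE 0.22, adjusted p = 0.00227). VIT_12s0035g00740 had 55.6, 61 and 51.3 FPKM in Centennial Seedless and 13.5, 7.5 and 5.95 FPKM in Summer Black (log2 difference 2.58, SE 0.28, adjusted p = 0.00397), and VIT_12s0035g00750 had 55.6, 52.8 and 47.4 FPKM in Centennial Seedless and 8.76, 9.37 and 3.37 FPKM in Summer Black (log2 difference 2.79, SE 0.34, adjusted p = 0.00588). Each of the 3 missed the thresholds without any 1 of the Centennial Seedless libraries or Summer Black replicate 2, with adjusted p up to 0.0177, 0.0252 and 0.0331 in this order. VIT_12s0035g00740 did so without Summer Black replicate 3 as well, and VIT_12s0035g00750 without replicate 1. The other 3 cultivars held between 5.97 and 20.3 FPKM of the 3 genes, below every Centennial Seedless library and in part above Summer Black, while the flanking gene VIT_12s0035g00720 had 37.7, 38.7 and 45.2 FPKM in Centennial Seedless and 31.9, 35.6 and 33.4 FPKM in Summer Black. The fifth run, on unplaced sequence, held VIT_00s0160g00120, VIT_00s0160g00160 and VIT_00s0160g00210, which were lower in Centennial Seedless and reached at most 10.1 FPKM in Summer Black. They missed the thresholds without Centennial Seedless replicate 2 or 3, and VIT_00s0160g00160 without any Summer Black library too, with adjusted p up to 0.0113, 0.0247 and 0.0138. Shorter stretches were also seen, such as VIT_16s0115g00460 and VIT_16s0115g00470, which were near or at 0 in Centennial Seedless and had 16.4, 18.3 and 14.7 FPKM and 12.6, 14.5 and 14.8 FPKM in Summer Black.

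**Figure D4:**
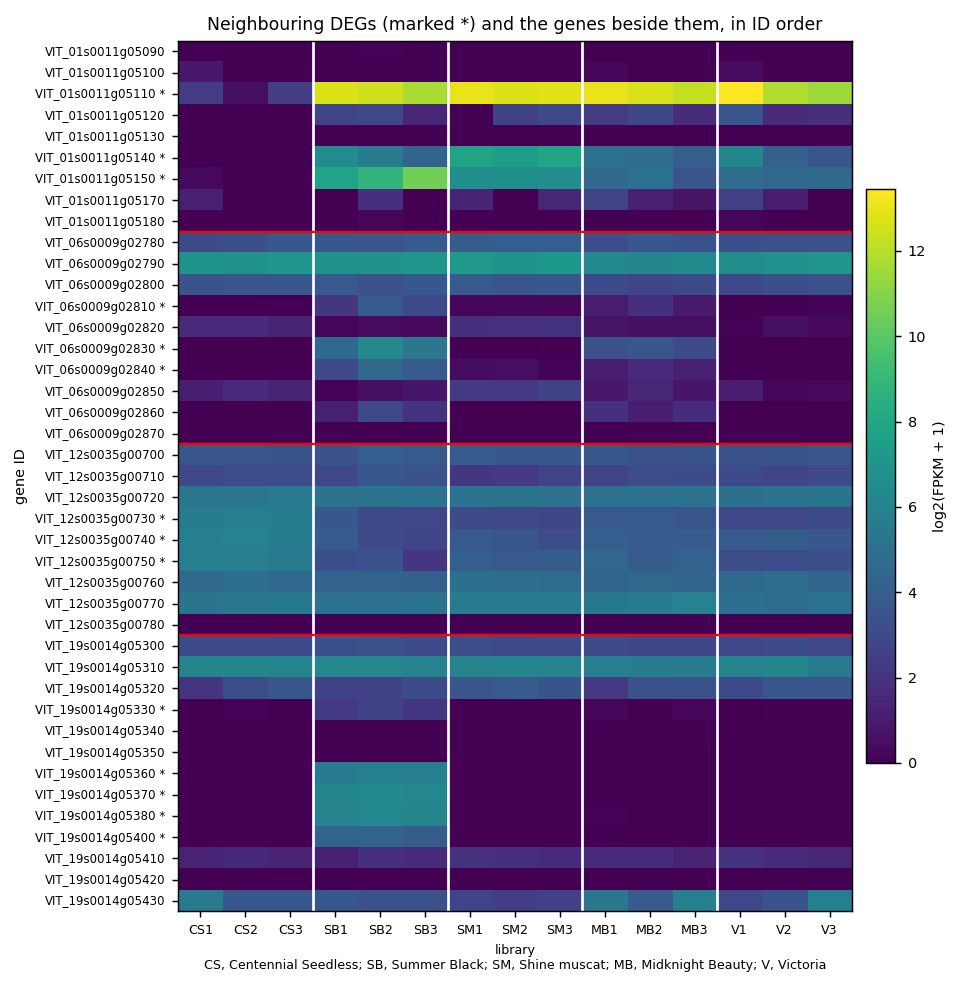
log2(FPKM + 1) (colour) of 4 of the 5 runs of neighbouring DEGs (asterisks) and the genes beside them, in the order of their identifiers (rows), in all 15 libraries (columns). The chromosome 19 genes are seen in Summer Black alone, the chromosome 1 genes are lowest in Centennial Seedless, the chromosome 6 genes are highest in Summer Black with lower values in Midknight Beauty, and the chromosome 12 genes are highest in Centennial Seedless.

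The other 3 cultivars were used to place the DEGs, as a description with no test and chosen after the values were seen. For each DEG, a cultivar was put on the side of Centennial Seedless or of Summer Black where all 3 of its libraries lay on that side of the midpoint between the 2 means of log2(FPKM + 1). Of the 177 DEGs that were higher in Centennial Seedless, Shine muscat lay on the side of Centennial Seedless in 81 and on the side of Summer Black in 78. Midknight Beauty did so in 102 and 35, and Victoria in 85 and 38. Of the 144 DEGs that were lower, Shine muscat lay with Centennial Seedless in 90 and with Summer Black in 48, Midknight Beauty in 79 and 38, and Victoria in 85 and 44. Among these DEGs the muscat cultivars did not side with Centennial Seedless throughout, and the neutral cultivar sided with it in 85 DEGs of either direction. The DEGs were chosen on the values of Centennial Seedless and Summer Black, and sides were not counted over all tested genes. With no such share beside them, these counts and the pattern counts below are no result about aroma or colour types.

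**Figure D5:**
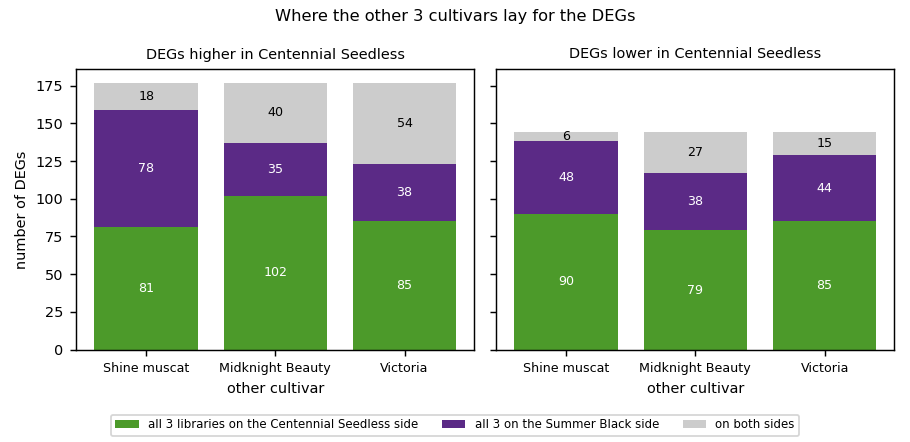
Number of DEGs (y axis) for which all 3 libraries of Shine muscat, Midknight Beauty or Victoria (x axis) lay on the side of Centennial Seedless, on that of Summer Black, or on both sides of the midpoint, for the 177 higher and the 144 lower DEGs. In each bar the part on the side of Centennial Seedless is the largest, and for Shine muscat and the higher DEGs it is nearly matched (81 against 78).

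All 3 other cultivars sided with Centennial Seedless in 46 of the lower and 40 of the higher DEGs, so that Summer Black stood alone, and all 3 sided with Summer Black in 15 and 14. The 40 genes in which Summer Black alone lay on the low side of the midpoint included VIT_05s0094g00350, although the other cultivars also lay below Centennial Seedless in it. Another was VIT_04s0044g00020, with 447, 457 and 464 FPKM in Centennial Seedless and 76.1, 70.2 and 47.3 FPKM in Summer Black (log2 difference 2.83, SE 0.19, adjusted p = 0.00142) and 254 to 740.4 FPKM elsewhere. The call was lost without Centennial Seedless replicate 2 or 3, with adjusted p up to 0.0115. The 14 genes that were high in Centennial Seedless alone included VIT_11s0016g01020, with 7.37, 11.4 and 5.81 FPKM in Centennial Seedless and 0.0279, 0.0247 and 0 FPKM in Summer Black (log2 difference 3.13, SE 0.25, adjusted p = 0.00179). All 6 fits with 1 library left out called it, with adjusted p up to 0.00992. Also among them were VIT_17s0000g03890 and VIT_17s0000g03910, which lie close together and had 4.4, 4.16 and 3.23 FPKM and 7.1, 5.59 and 5.45 FPKM in Centennial Seedless.

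In 14 of the lower and 2 of the higher DEGs, Midknight Beauty, the other dark cultivar, sided with Summer Black and the green cultivars Shine muscat and Victoria with Centennial Seedless. The 14 included VIT_04s0079g00690, VIT_05s0136g00260 and VIT_06s0009g02830. VIT_16s0039g02230 belonged to them too, with 0.037, 0 and 0 FPKM in Centennial Seedless and 26.3, 284 and 81.3 FPKM in Summer Black (log2 difference -6.41, SE 0.79, adjusted p = 0.00598) and 30.8 to 84.6 FPKM in Midknight Beauty. Its call did not hold without Centennial Seedless replicate 1, 2 or 3 or Summer Black replicate 3, where adjusted p reached 0.0315. VIT_18s0001g09400 had 0.894, 1.56 and 1.34 FPKM in Centennial Seedless and 63.9, 334 and 178 FPKM in Summer Black (log2 difference -6.13, SE 0.57, adjusted p = 0.00262) and 27.5 to 60.5 FPKM in Midknight Beauty. This gene fell short of the thresholds without Centennial Seedless replicate 1, 2 or 3 or Summer Black replicate 3, with adjusted p up to 0.0171. VIT_16s0050g00910 had 1.97, 4.33 and 2.52 FPKM in Centennial Seedless and 87.7, 256 and 86.4 FPKM in Summer Black (log2 difference -5.04, SE 0.47, adjusted p = 0.00262). It missed the thresholds without Centennial Seedless replicate 1, 2 or 3, with adjusted p up to 0.0148. VIT_06s0009g03000 and VIT_06s0009g03010 were listed at 0 in Centennial Seedless and had 9.22, 31.6 and 9.45 FPKM and 9.97, 33.6 and 15.6 FPKM in Summer Black. Both missed the thresholds without any 1 of the Centennial Seedless libraries or Summer Black replicate 3, and the former without replicate 1 too, with adjusted p up to 0.0299 and 0.0199. In all 14 genes replicate 2 was the highest of the Summer Black libraries, while over all 144 lower DEGs it was the highest in 66, replicate 1 in 42 and replicate 3 in 36. In Midknight Beauty the highest library of these 14 genes was replicate 1 in 8, replicate 2 in 4 and replicate 3 in 2. A list of 9 identifiers was drawn up for late steps of anthocyanin synthesis, but no source used here annotates its members. It had 0 higher and 5 lower DEGs. This is 55.6% against 1.76% of all tested genes, with a median difference of -4.75 against 0.04. All 5 are among these 14, and VIT_04s0079g00690 among them was also counted with the pathway genes above. The list was chosen with earlier results of these data known, so that its count is not independent evidence. Of its 4 other members, VIT_16s0050g00930 was the 1 with higher values in Centennial Seedless, at 42.5, 71.2 and 47.9 FPKM in Centennial Seedless and 13.6, 31.5 and 17.6 FPKM in Summer Black, without overlap but short of the thresholds (log2 difference 1.37, SE 0.34, adjusted p = 0.0524).

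Shine muscat alone sided with Summer Black in 12 lower and 16 higher DEGs. Of the 12, VIT_03s0017g02260 had 0.0734, 0 and 0.0769 FPKM in Centennial Seedless and 10.8, 41.6 and 10.9 FPKM in Summer Black (log2 difference -4.11, SE 0.52, adjusted p = 0.00628), and 613 to 1091 FPKM in Shine muscat. The call was lost without Centennial Seedless replicate 1, 2 or 3 or Summer Black replicate 1 or 3, with adjusted p up to 0.034. VIT_11s0118g00370 was listed at 0 FPKM in all 3 Centennial Seedless libraries and 194, 33.5 and 84.8 FPKM in Summer Black (adjusted p = 0.00262), and at 9.95 to 19.3 FPKM in Shine muscat. Its call did not hold without Centennial Seedless replicate 1, 2 or 3 or Summer Black replicate 3, where adjusted p reached 0.0177. In 10 higher and 8 lower DEGs, Shine muscat and Midknight Beauty were on the side of Centennial Seedless and Victoria on that of Summer Black, so that the muscat cultivars were on 1 side. The candidate UGT gene VIT_17s0000g07070 was one of the 10. VIT_13s0064g00270, another of the 10, had 45.1, 56.1 and 49.1 FPKM in Centennial Seedless and 2.69, 2.78 and 3.27 FPKM in Summer Black (log2 difference 3.70, SE 0.15, adjusted p = 0.000319), with 18.7 to 37.3 FPKM in the other muscat cultivars and 3.27 to 11.6 FPKM in Victoria. It passed in all 6 fits with 1 library left out, with adjusted p up to 0.0061. VIT_19s0014g04540 had 27.9, 34.8 and 32.2 FPKM in Centennial Seedless and 8.49, 7.02 and 3.58 FPKM in Summer Black (log2 difference 2.21, SE 0.29, adjusted p = 0.00714). It passed in none of the 6 fits with 1 library left out, with adjusted p from 0.00912 to 0.0408.

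Genes that the authors assembled in addition to the reference annotation accounted for 745 of the 18238 genes in the test, of which 7 were higher and 10 lower in Centennial Seedless. This is 2.28%, against 1.74% of the 17493 genes of the reference annotation. Of the 16 genes that were measured in Summer Black alone, 5 were newly assembled, against 1997 of all 31924 genes. This difference was not tested.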

How the data were processed

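RNA from grape skin was measured in 15 libraries of 5 cultivars, and the groups come from the labels. The authors deposited FPKM per gene, estimated from reads aligned to the grape genome. The labels' processing notes name HISAT2 and StringTie, whereas the study's methods name Bowtie2, RSEM and the PN40024 genome, and the kits differ likewise. FPKM were used without rescaling. Genes with 1 FPKM or more in 3 or more of the 15 libraries were tested on log2(FPKM + 1), pseudocount 1, with limma 3.58.1 (variance trend, 4 residual degrees of freedom) in R 4.3.3, on the 6 libraries compared. A DEG had an absolute difference of 2 or more and an adjusted p of 0.01 or less, as the study sets. Scripts were tested on simulated data. Tables used pandas 2.3.3 in Python 3.11.15. Members, lists and tests were chosen with earlier results of these data known. Of 22 lists, those that find genes by annotation could not be applied, since 0 identifiers matched the 29591 genes of the reference table, and only the lists of identifiers were used. Named genes were the 5 largest differences and the 3 most abundant DEGs in each direction, the study's genes with an identifier, and up to 3 DEGs per list. Genes named in the neighbour, presence and cultivar-side paragraphs were chosen after their values were seen. Alternatives were the fit of all libraries, a replicate block, another pseudocount, other filters, scalings and thresholds, no variance trend, and each library left out.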

Additional observations from a re-analysis of the deposited data

How the results depend on the processing

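The count of 321 DEGs stayed within 1.5 times of itself under median-of-ratios scaling (316), no filter (304), quantile normalization (309, with 146 higher and 163 lower), a minimum of 5 FPKM (272), a variance without trend (318) and the study's other thresholds of 1 and an adjusted p of 0.005 (376). It was 495 in the fit of all 15 libraries, which kept 317 of the 321, and 628 at a pseudocount of 0.1. With 1 library left out it ran from 46 to 204. With the replicate number as a block, 0 genes passed, and 4756 had an unadjusted p under 0.05, with 2 residual degrees of freedom. Same-numbered libraries did not deviate together throughout (r -0.23, -0.24 and 0.40). Only replicate 3 correlated best with its own number, so the numbers were not taken as pairs. Deviations of differently numbered libraries were also correlated. Summer Black replicate 2 had r 0.49 with Centennial Seedless replicate 1 and -0.45 with Centennial Seedless replicate 3. Whether the cultivars share a source of spread was not tested. Of the 48 named genes, 19 were DEGs, of which 6 passed in all 6 fits with a library left out. Under the block these 19 no longer passed. The difference of VIT_06s0004g02060 was 0.14, but -0.056 under quantile normalization and -0.0058 to 0.317 with a library left out, and that of VIT_13s0047g00940 was -0.12, but -0.273 to 0.025 with a library left out, and neither gene was a DEG. The depth per value is unknown, so the counting error of values near 0 could not be stated.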
